A study of Mus musculus with 18 samples.

Results

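Voltage-gated ion channel genes are described here as a group of 29 genes, chosen by symbol from the 56953 gene identifiers of the count tables. They encode 7 sodium channel subunits (4 pores and 3 beta subunits), 8 calcium channel pores, 13 potassium channel subunits and the HCN channel Hcn2. RNA was sequenced from neuron, astrocyte and microglia fractions that had been captured one after another by antibodies from mouse frontal cortex. Mice of the strain B6;D2-Tg(S100B-EGFP)1Wjt/J, which carries an EGFP transgene named for S100B in every group including the controls, were injected intraperitoneally with clozapine (10 mg/kg), risperidone (1 mg/kg) or vehicle. Injections were given once a day for 14 days from postnatal day 60, and cortices were taken on postnatal day 75. The cortices of 5 animals made 1 pool, each treatment had 2 pools, one in each of 2 batches, and every pool gave all 3 fractions, so the 18 libraries form 9 groups of n = 2. Endothelial cells were removed first, microglia were captured on CD45, oligodendrocytes and their precursors were then removed, and Thy1 and HepaCAM antibodies captured neurons and astrocytes. The labels name both sexes in one place and adult males in another.

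Voltage-gated channels open or close when the voltage across the cell membrane changes, and in neurons they set how action potentials start, travel and end. Sodium channels drive the upstroke of the action potential, calcium channels couple depolarization to transmitter release and firing patterns, and potassium channels repolarize the membrane and set firing rate. HCN channels open on hyperpolarization and carry an inward current that shapes resting potential and rhythm. Neurons are the main cells of the cortex that use these genes, while the membrane of astrocytes and microglia is set chiefly by other potassium channels.

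The channel genes were highest in the neuron fraction. Of the 29 genes, 28 were higher in the neuron than in the microglia fraction at an adjusted p under 0.05, where 18.8% of the 37310 genes tested were higher and 28.2% lower. Their median log2 difference was 1.5, against -0.62 over all genes. Likewise 28 were higher in the neuron than in the astrocyte fraction (9.17% of all genes higher, 14.6% lower), with a median of 1.15 against -0.46 over all genes. Cacna1d was the one gene outside both counts. Between the astrocyte and the microglia fraction, 2 genes were higher in astrocytes, Hcn2 and Kcna1 (6.85% of all genes higher, 6.18% lower), and the median over the 29 genes was 0.17, against -0.02 over all genes. There 5 channel genes had an unadjusted p under 0.05 (21.3% of all genes). DESeq2 called 3, with its share over all genes not given here. These tests used edgeR's quasi-likelihood method on counts, with Benjamini-Hochberg adjustment over all genes tested, and differences are log2 of the first fraction over the second, averaged over the 3 treatments. No channel gene passed the same threshold in any drug comparison, and 22 of 29 differed between the batches of the microglia fraction.

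Promoter windows of 4 genes are shown because these genes stand at the ends of the fraction differences. They are Hcn2 (the largest neuron over microglia difference), Scn2b and Kcna2 (large differences in the sodium and potassium groups) and Cacna1d (the smallest difference, with the most GC-rich window). Each runs 5′ to 3′ on the gene's strand from 250 bases before to 50 bases after a RefSeq start on GRCm38.p6. The windows are chr10:79716384-79716683 for Hcn2 on the plus strand, chr9:45117626-45117925 for Scn2b on the plus strand, chr3:107101317-107101616 for Kcna2 on the plus strand and chr14:30353437-30353736 for Cacna1d on the minus strand. Capitals mark the Sp1 motif GGGCGG or its reverse complement.
Hcn2: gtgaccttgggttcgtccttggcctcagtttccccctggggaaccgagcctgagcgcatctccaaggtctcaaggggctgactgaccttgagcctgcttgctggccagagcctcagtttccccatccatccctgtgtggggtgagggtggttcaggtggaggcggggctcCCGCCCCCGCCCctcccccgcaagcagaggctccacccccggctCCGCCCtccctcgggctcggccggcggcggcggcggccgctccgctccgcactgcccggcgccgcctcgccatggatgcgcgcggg
Scn2b: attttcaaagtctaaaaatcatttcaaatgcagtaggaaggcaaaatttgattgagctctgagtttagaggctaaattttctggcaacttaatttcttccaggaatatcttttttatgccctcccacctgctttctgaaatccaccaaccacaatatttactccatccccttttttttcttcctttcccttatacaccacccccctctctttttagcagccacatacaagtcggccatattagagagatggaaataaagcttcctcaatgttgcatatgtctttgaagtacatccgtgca
Kcna2: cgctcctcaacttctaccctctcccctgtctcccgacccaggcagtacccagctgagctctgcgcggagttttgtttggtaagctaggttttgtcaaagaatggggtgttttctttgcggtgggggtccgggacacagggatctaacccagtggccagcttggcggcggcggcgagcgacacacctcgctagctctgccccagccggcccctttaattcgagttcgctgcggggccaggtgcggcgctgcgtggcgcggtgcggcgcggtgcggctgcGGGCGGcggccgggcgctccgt
Cacna1d: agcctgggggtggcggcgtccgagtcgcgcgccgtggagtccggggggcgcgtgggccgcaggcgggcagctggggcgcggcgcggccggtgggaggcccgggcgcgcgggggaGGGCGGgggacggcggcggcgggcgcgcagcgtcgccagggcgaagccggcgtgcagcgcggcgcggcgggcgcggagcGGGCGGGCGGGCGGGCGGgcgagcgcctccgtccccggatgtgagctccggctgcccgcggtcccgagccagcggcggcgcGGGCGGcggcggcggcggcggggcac
The GC content was 72.3% in the Hcn2 window, 38.3% in the Scn2b window, 66.7% in the Kcna2 window and 87.3% in the Cacna1d window. The Cacna1d window held 63 CpG sites and the Scn2b window 2, and Cacna1d has a second window of 40.3% GC. RefSeq windows were found for 21 of the 29 genes (all but Scn3a, Scn3b, Cacna1a, Cacna1g, Cacna1h, Kcna1, Kcnb2 and Kcnq3), 30 windows in all, and their median GC was 62.7% against 52.7% over 32851 windows of the same length. The Sp1 motif, searched on both strands, was in 40.0% of the members' windows and 35.7% of all windows. The heptamer TTCAGCA, taken from the left part of the REST element, was in 0 of the 30 windows and 4.70% of all. GGACAGC, from its right part, was in 1 window (Kcnq5), or 3.33%, against 6.56% of all. TGACGTC, from the cyclic AMP response element, was in 0 windows against 3.21% of all, and the TATA box letters TATAAA were in 6.67% (Cacna1d and Scn2a) against 13.6%. The motifs differ in letters and none is part of another. A match is only a description of these letters in this window.

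Each fraction was highest in its own marker and also held RNA of other cell types. Rbfox3, a nuclear protein of mature neurons, had a lowest, median and highest level of 196, 327 and 441 CPM, counts scaled to library size, in neuron libraries, 57.3, 135 and 142 CPM in astrocyte libraries and 35.8, 59.3 and 154 CPM in microglia libraries. Cx3cr1, the fractalkine receptor of microglia, had 6.13, 18.1 and 85.6 CPM in neuron, 20.4, 32.6 and 57.8 CPM in astrocyte and 324, 345 and 636 CPM in microglia libraries. Aqp4, the water channel of astrocyte endfeet, had 75.0, 129 and 211 CPM in neuron, 229.5, 310.5 and 462 CPM in astrocyte and 36.5, 67.8 and 110.5 CPM in microglia libraries. Over the whole lists, 12 of 12 microglia markers were called lower in neurons than in microglia (median log2 difference -3.97), 8 of 11 astrocyte markers higher (0.93) and 10 of 10 oligodendrocyte markers higher (2.4). In neurons against astrocytes 8 of 11 astrocyte markers were called lower (-1.09). Myelin RNA was present after the depletion of oligodendrocytes: Mbp, a myelin protein gene, had medians of 5163 CPM in neuron, 7598 CPM in astrocyte and 272 CPM in microglia libraries. Its level differed by batch. Neuron libraries had 7595 to 18166 CPM in batch 1, against 2145 to 2731 CPM in batch 2. Astrocyte libraries had 13229 to 26072 CPM in batch 1, against 1339 to 1967 CPM in batch 2. Cldn5, an endothelial tight junction gene, stayed at or below 7.41 CPM in every library. The whole list of 7 endothelial markers summed to 21.9 to 117 CPM in neuron, 69.0 to 172 CPM in astrocyte and 118 to 222 CPM in microglia libraries. Depth ranged from 4.71 to 13.39 M assigned counts with a median of 7.44 M, and the 29 genes had 68 to 8907 counts per library. In bulk samples such as these, fewer cells of a type and less RNA per cell cannot be told apart. Each group had 2 pools, which came from different batches, and the main fraction and drug fits had no batch or pool term. Their p-values therefore rest on a spread in which differences between pools of animals and between batches cannot be separated. Libraries of different fractions from the same pool were treated as independent in the fraction fits.

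Neuronal marker RNA moved with the channel genes, and its part in the result was not tested. Summed over the 18 pan-neuronal markers, the level was 11284 to 19957 CPM in neuron, 2738 to 8339 CPM in astrocyte and 2507 to 8153 CPM in microglia libraries. Of these 18, 17 were called higher in neurons than in microglia (median log2 difference 1.97) and 17 higher than in astrocytes (1.62). The 29 channel genes summed to 4720.1 to 8842 CPM in neuron, 2221 to 3347 CPM in astrocyte and 1331 to 3781 CPM in microglia libraries. Per 100 CPM of pan-neuronal markers, that is 34.7 to 47.5 CPM in neuron, 39.8 to 84.3 CPM in astrocyte and 43.6 to 60.2 CPM in microglia libraries. These ranges overlap, with medians of 41.9 CPM in neuron, 44.5 CPM in astrocyte and 52.5 CPM in microglia libraries. Within pools, the microglia value was above the neuron value in every pool. The astrocyte value was above the neuron value in every pool but batch 1 risperidone (42.4 against 46.1 CPM). As a measure of reads with no known source in cortex, 1984 genes of olfactory, vomeronasal and trace amine receptors had 0.0374 to 0.281 CPM per kilobase of exon in neuron, 0.188 to 0.543 in astrocyte and 0.282 to 0.589 in microglia libraries. That level reached at most 38.7% of a channel gene's own level per kilobase, for Kcnc2 in a microglia library, and at most 7.05% in neuron libraries.

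The sodium channel pores were all higher in neurons. Levels of the genes below are the lowest, median and highest of 6 libraries per fraction. Scn1a, the NaV1.1 pore on which fast-spiking interneurons rely, had 176, 259 and 356 CPM in neuron, 90.7, 128 and 134 CPM in astrocyte and 57.5, 86.7 and 195 CPM in microglia libraries. Scn2a, the NaV1.2 pore of excitatory neurons and early axons, had 290.5, 505 and 672 CPM in neuron, 150.5, 177 and 217 CPM in astrocyte and 64.8, 149 and 308 CPM in microglia libraries. Scn3a, the NaV1.3 pore best known from the fetal brain, had 58.4, 89.5 and 103 CPM in neuron, 34.1, 37.1 and 53.4 CPM in astrocyte and 20.5, 31.1 and 70.0 CPM in microglia libraries. In all 3 the neuron libraries lay above every astrocyte library, and the highest microglia library reached into the neuron range. Scn8a, the NaV1.6 pore of axon initial segments and nodes, had 474, 675 and 1100.0 CPM in neuron, 248, 309.7 and 324 CPM in astrocyte and 128, 218 and 429.7 CPM in microglia libraries. The neuron over microglia difference was 1.31 (SE 0.31, adjusted p = 0.00217) for Scn1a and 1.23 (SE 0.27, adjusted p = 0.00111) for Scn3a, the 2 smallest of the sodium group. Over astrocytes it was 1.13 (SE 0.31, adjusted p = 0.0155) for Scn1a and 1.04 (SE 0.27, adjusted p = 0.0113) for Scn3a.

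Beta subunits, which sit beside the sodium pore and tune its gating and placement, are known from the axon and its initial segment, and Scn2b and Scn4b gave the largest differences of the sodium group. Scn2b, at chr9:45029080-45041368 on GRCm39 (ENSMUSG00000070304.13), whose product is disulfide-linked to the pore, had 119, 181 and 262 CPM in neuron, 52.7, 59.7 and 80.2 CPM in astrocyte and 18.4, 45.7 and 77.1 CPM in microglia libraries. Its difference was 1.96 (SE 0.33, adjusted p = 9.01e-05) over microglia and 1.58 (SE 0.33, adjusted p = 0.00413) over astrocytes. Scn4b, whose product is linked to the pore in the same way and is known for resurgent sodium current, had 49.9, 64.8 and 149.6 CPM in neuron, 23.9, 30.2 and 39.1 CPM in astrocyte and 11.9, 28.6 and 54.1 CPM in microglia libraries. Its difference was 1.57 (SE 0.32, adjusted p = 0.000541) over microglia and 1.48 (SE 0.32, adjusted p = 0.00456) over astrocytes. Scn3b, the beta subunit that binds without a covalent link, had 70.6, 108 and 138 CPM in neuron, 32.6, 47.6 and 67.0 CPM in astrocyte and 20.6, 36.7 and 73.3 CPM in microglia libraries. All 7 sodium channel genes were called higher in neurons in both comparisons, with medians of 1.5 over microglia and 1.33 over astrocytes.

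High-voltage-activated calcium pores feed transmitter release and calcium signals to the nucleus. Cacna1a, the P/Q-type pore of many presynaptic terminals, had 368, 449 and 578 CPM in neuron, 148, 224 and 310.3 CPM in astrocyte and 135, 220.2 and 319.8 CPM in microglia libraries. Cacna1b, the N-type pore of terminals, had 146, 171 and 235 CPM in neuron, 61.3, 84.2 and 119.6 CPM in astrocyte and 47.0, 73.8 and 125 CPM in microglia libraries. Cacna1e, the R-type pore, had 551, 620.1 and 908 CPM in neuron, 198, 304 and 387 CPM in astrocyte and 130.1, 243 and 475 CPM in microglia libraries. All 3 had neuron libraries above every astrocyte library, and for Cacna1e the difference was 1.32 (SE 0.33, adjusted p = 0.00267) over microglia and 1.15 (SE 0.32, adjusted p = 0.0165) over astrocytes. Cacna1c, the main L-type pore of forebrain neurons, had 164, 196 and 249 CPM in neuron, 83.1, 103 and 141 CPM in astrocyte and 64.0, 86.9 and 141 CPM in microglia libraries. Cacna1d, the L-type pore that opens at more negative voltages, lies at chr14:29761896-30213412 on GRCm39 (ENSMUSG00000015968.19) and had 122, 175 and 203 CPM in neuron, 61.0, 112 and 163 CPM in astrocyte and 75.5, 119 and 161 CPM in microglia libraries. Its 3 ranges overlapped, and its difference was 0.52 (SE 0.27, adjusted p = 0.113) over microglia and 0.64 (SE 0.27, adjusted p = 0.0817) over astrocytes. Of its exonic bases 4.85% are shared with genes on the opposite strand, which counting without strand cannot separate. The same limit holds for Kcnh7 (4.57%), Cacna1a (3.53%), Kcnd3 (1.72%) and Cacna1h (1.62%).

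Low-voltage-activated, or T-type, calcium pores support burst firing. Cacna1g, the T-type pore prominent in thalamus and cortex, had 102, 121 and 145 CPM in neuron, 40.3, 64.2 and 88.0 CPM in astrocyte and 40.3, 59.4 and 78.2 CPM in microglia libraries. Cacna1h, a T-type pore also known from sensory neurons, had 43.1, 57.9 and 66.7 CPM in neuron, 24.2, 37.8 and 42.8 CPM in astrocyte and 23.0, 30.02 and 46.6 CPM in microglia libraries. Cacna1i, the slower T-type pore found mainly in brain, had 132, 193 and 248 CPM in neuron, 48.6, 83.7 and 91.4 CPM in astrocyte and 40.3, 53.1 and 99.5 CPM in microglia libraries. Cacna1i gave the largest difference of the calcium group, 1.59 (SE 0.29, adjusted p = 0.000157) over microglia and 1.34 (SE 0.28, adjusted p = 0.00434) over astrocytes. Cacna1h gave the smallest called one, 0.85 (SE 0.22, adjusted p = 0.00443) over microglia and 0.69 (SE 0.22, adjusted p = 0.032) over astrocytes. The astrocyte comparison of Cacna1h lost its call with the pool as a replicate block (adjusted p = 0.0613) and held in 7 of the 18 fits that each left out 1 library. In all, 7 of 8 calcium genes were called higher in neurons in each comparison, with medians of 1.05 over microglia and 0.96 over astrocytes.

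All 13 potassium genes were called higher in neurons in both comparisons, with medians of 1.64 over microglia and 1.23 over astrocytes. In the Shaker subfamily, Kcna1 encodes the KV1.1 subunit, which limits excitability along axons, and had 129, 183 and 271 CPM in neuron, 86.4, 102 and 142 CPM in astrocyte and 31.1, 52.8 and 86.6 CPM in microglia libraries. Kcna2, the KV1.2 partner of KV1.1 beside the nodes of Ranvier, had 241, 348 and 569 CPM in neuron, 144, 201 and 209.6 CPM in astrocyte and 65.2, 98.9 and 162 CPM in microglia libraries. Kcna4, a subunit with rapid inactivation, had 30.9, 39.2 and 56.8 CPM in neuron, 14.9, 19.1 and 26.5 CPM in astrocyte and 10.0, 17.5 and 28.2 CPM in microglia libraries. Kcna2 and Kcna1 gave the largest potassium differences over microglia, 1.81 (SE 0.30, adjusted p = 7.16e-05) for Kcna2 and 1.76 (SE 0.27, adjusted p = 3.68e-05) for Kcna1. Kcna1 gave the smallest one over astrocytes, where the ranges overlapped, 0.84 (SE 0.27, adjusted p = 0.0287). That call of Kcna1 was lost with total-count scaling (0.31, adjusted p = 0.311) and held in 9 of the 18 fits that each left out 1 library. Kcna4 was the smallest over microglia at 1.18 (SE 0.23, adjusted p = 0.000334). Kcnb2, a Shab delayed rectifier, had 51.4, 65.3 and 128 CPM in neuron, 22.5, 30.2 and 47.4 CPM in astrocyte and 21.7, 27.9 and 60.5 CPM in microglia libraries. Its difference over microglia was 1.21 (SE 0.27, adjusted p = 0.00103).

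The Shaw genes Kcnc1 and Kcnc2 encode fast delayed rectifiers typical of fast-spiking cells. Kcnc1 had 101, 169 and 256 CPM in neuron, 53.8, 72.2 and 92.6 CPM in astrocyte and 29.9, 48.4 and 107 CPM in microglia libraries. Kcnc2 had 41.7, 66.8 and 89.7 CPM in neuron, 21.5, 26.6 and 28.9 CPM in astrocyte and 10.7, 22.1 and 37.3 CPM in microglia libraries. Kcnc4, a Shaw subunit with rapid inactivation, had 38.6, 61.8 and 85.6 CPM in neuron, 17.8, 29.1 and 31.7 CPM in astrocyte and 13.8, 14.9 and 26.2 CPM in microglia libraries, and its neuron libraries lay above all others. The Shal genes carry the transient current of dendrites. Kcnd2, the KV4.2 pore of dendrites, had 76.9, 149.8 and 268 CPM in neuron, 48.0, 61.2 and 74.6 CPM in astrocyte and 22.4, 41.6 and 94.8 CPM in microglia libraries. Kcnd3, the KV4.3 pore, had 55.4, 101 and 119 CPM in neuron, 39.5, 55.0 and 66.6 CPM in astrocyte and 20.9, 34.5 and 60.4 CPM in microglia libraries, with ranges that overlapped between neurons and both other fractions, and its difference over astrocytes, 0.86 (SE 0.26, adjusted p = 0.0219), was the second smallest of the potassium group. The batch 1 vehicle neuron library was low for Kcnd3, at 55.4 CPM, with the other 5 between 93.5 and 119 CPM.

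KCNQ and EAG genes complete the potassium group. Kcnq3, a subunit of the M-current that restrains repeated firing, had 226, 325 and 452 CPM in neuron, 121, 173 and 204 CPM in astrocyte and 69.0, 88.0 and 160.4 CPM in microglia libraries. Kcnq5, another M-current subunit, had 99.3, 157 and 236 CPM in neuron, 42.5, 51.6 and 69.2 CPM in astrocyte and 23.1, 42.3 and 85.1 CPM in microglia libraries and gave the largest potassium difference over astrocytes, 1.58 (SE 0.29, adjusted p = 0.00329). Kcnh1, the EAG1 channel, had 98.7, 126 and 222 CPM in neuron, 36.0, 53.9 and 62.6 CPM in astrocyte and 25.0, 36.5 and 73.0 CPM in microglia libraries. Kcnh7, an ERG-type channel, had 254, 393 and 536 CPM in neuron, 92.7, 153 and 181 CPM in astrocyte and 62.4, 98.7 and 218 CPM in microglia libraries, with a difference over astrocytes of 1.49 (SE 0.33, adjusted p = 0.00488). All neuron libraries of Kcnq5, Kcnh1 and Kcnh7 lay above their highest microglia library.

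**Figure D1:**
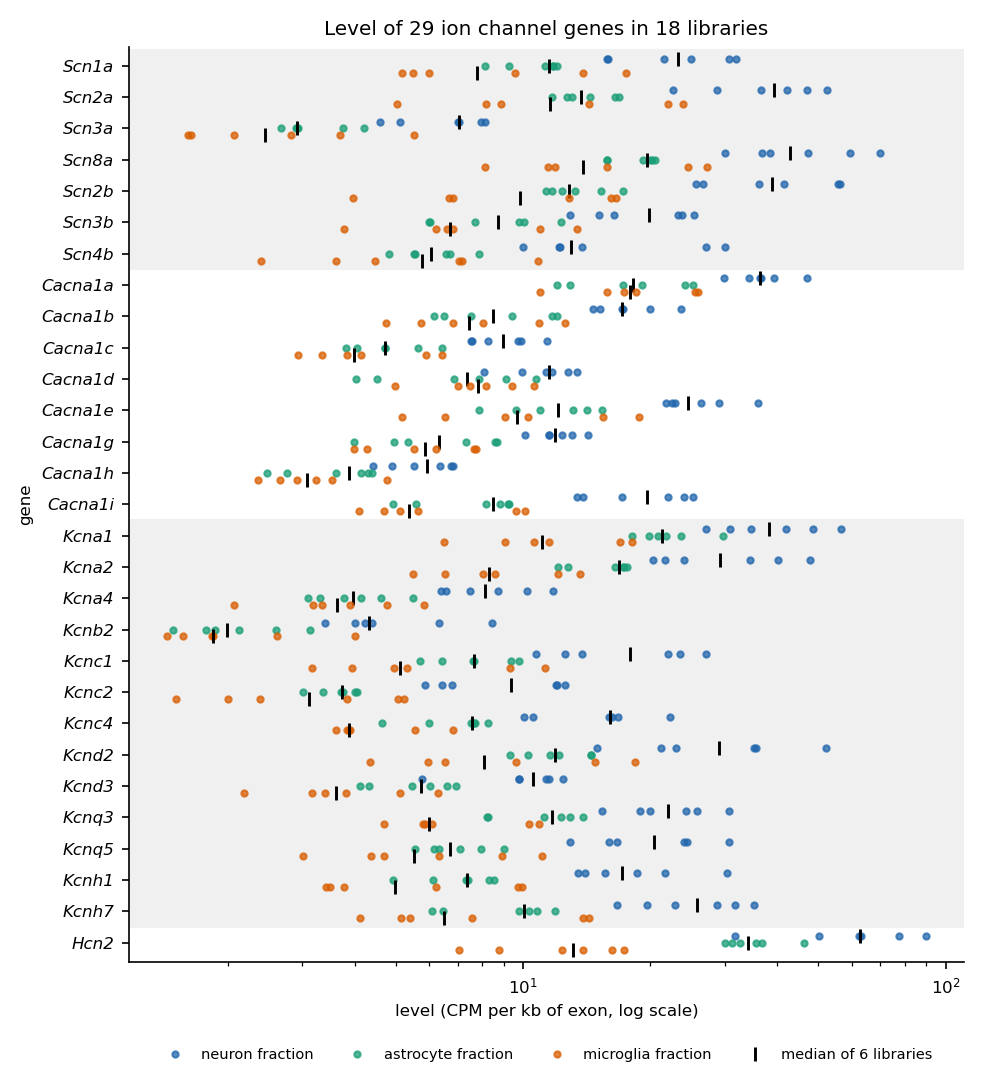
Level of the 29 channel genes in each of the 18 libraries, as CPM per kilobase of exon on a log axis, 6 points per fraction with their median as a black mark and genes grouped by family. Hcn2 has the highest neuron median, 62.8, and Kcnb2 the lowest, 4.3.

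Compared per kilobase of exon, Hcn2 had the highest median of the 29 genes in neurons, 62.8 CPM per kb, and in astrocytes, 34.1. In microglia libraries its rank was 3, at 13.1, after Cacna1a at 17.9 and Scn8a at 13.8. Behind Hcn2 in neurons came Scn8a at 42.8, Scn2a at 39.2, Scn2b at 38.8, Kcna1 at 38.3 and Cacna1a at 36.4 CPM per kb. In each of the 6 neuron libraries Hcn2 lay above Scn2b, Kcna1 and Cacna1a, and Scn8a lay above Scn2a and Scn2b. Hcn2 lay above Scn8a and Scn2a in 5 of the 6, while the ranges of these 6 genes over libraries overlap. Kcnb2 was last in every fraction, with 4.3 in neuron, 1.99 in astrocyte and 1.84 CPM per kb in microglia libraries.

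**Figure D2:**
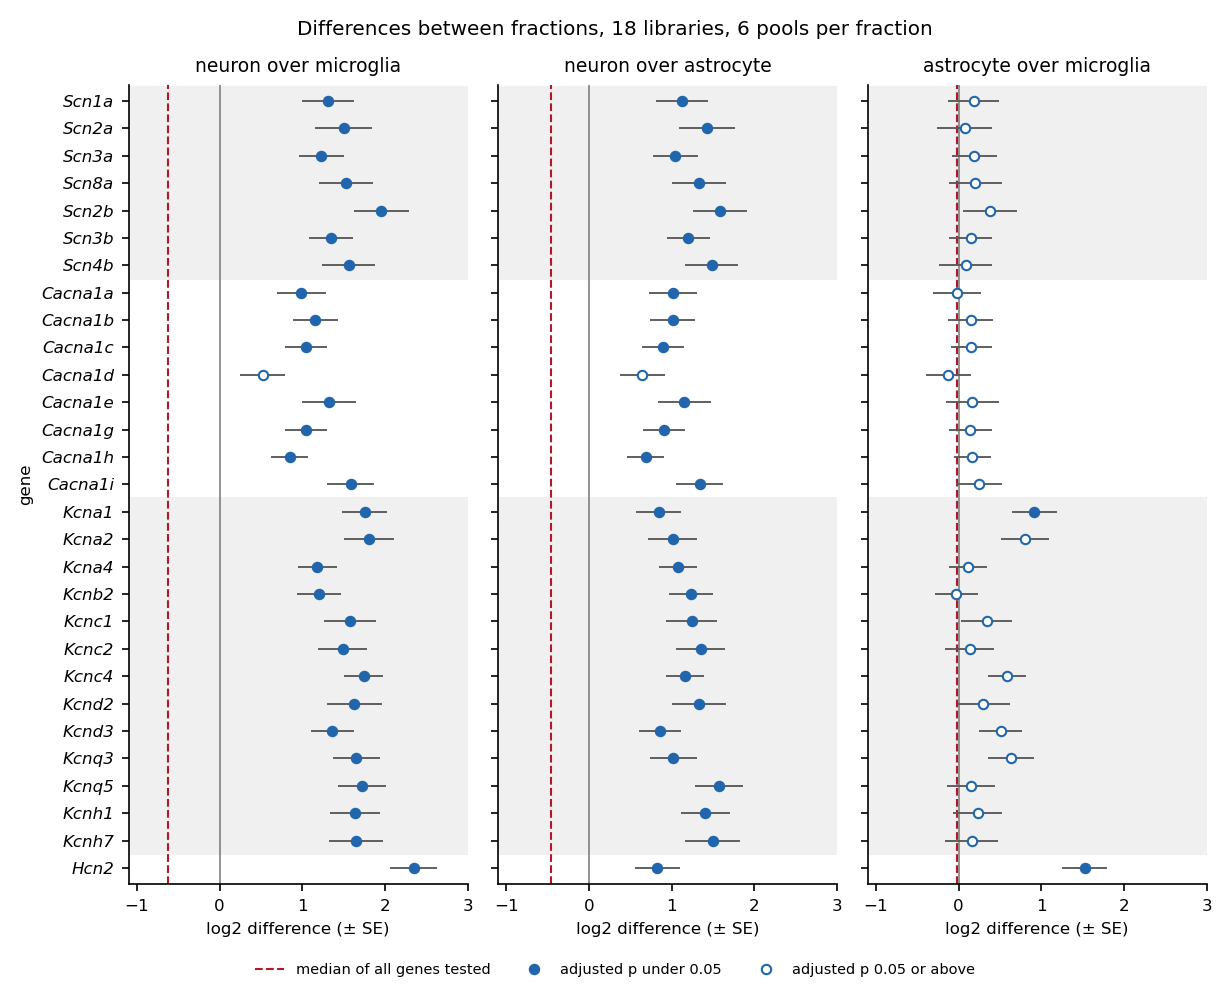
Log2 difference of each channel gene between fractions, with its standard error, for neuron over microglia, neuron over astrocyte and astrocyte over microglia, where filled points have an adjusted p under 0.05 and the dashed line is the median of all genes tested. The first 2 panels have 28 filled points each and the third has 2, Hcn2 and Kcna1.

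Counting pools in place of tests, 28 of 29 genes were higher in the neuron than in the microglia fraction in each of the 6 pools (18.8% of all genes), and 18 had ranges that did not overlap (10.5% of all genes). Against astrocytes, 27 were higher in each pool (9.16% of all genes) and 25 did not overlap (4.38%). Within batch 1, all 29 genes were called over microglia and 13 over astrocytes (14.6% and 2.15% of all genes called higher). Within batch 2, 28 were called over microglia and 29 over astrocytes (16.5% and 16.8% of all genes). The count over astrocytes was 15, 16 or 17 when any one of the batch 2 astrocyte or batch 2 neuron libraries was left out. Without the 4 libraries of highest chemosensory receptor level (both risperidone microglia libraries and the batch 2 vehicle and risperidone astrocyte libraries), 27 were called over microglia and 15 over astrocytes (13.1% and 4.52% of all genes called higher). With total-count scaling the median of all genes was -1.13 over microglia and -0.93 over astrocytes. It left 24 genes called over microglia (9.76% of all genes higher, 38.3% lower) and 19 over astrocytes (3.91% higher, 25.9% lower), with all 29 differences above 0 in both and medians of 0.91 and 0.64. Among the genes given with an adjusted p, Scn3a and Cacna1h lost their call over microglia with this scaling, and Scn1a, Scn3a, Cacna1h, Kcna1, Kcnd3 and Hcn2 lost theirs over astrocytes. In vehicle libraries alone, 1 gene was called over microglia (2.97% of all genes higher) and 0 over astrocytes (0.00337% higher), with all 29 above 0 in both and medians of 1.07 and 1.22.

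Between the astrocyte and the microglia fraction 2 genes were called, Hcn2 and Kcna1. Hcn2, at chr10:79552468-79571942 on GRCm39 (ENSMUSG00000020331.10), encodes the HCN2 pacemaker channel and had 101, 201 and 287 CPM in neuron, 95.8, 109 and 147 CPM in astrocyte and 22.5, 41.9 and 55.4 CPM in microglia libraries. Its astrocyte and microglia ranges did not overlap (3.91% of all genes were higher without overlap). The fitted log2 difference of Hcn2 was 2.35 (SE 0.28, adjusted p = 2.15e-06) for neuron over microglia, 0.82 (SE 0.27, adjusted p = 0.0327) for neuron over astrocyte and 1.52 (SE 0.28, adjusted p = 0.000329) for astrocyte over microglia. With the pool as a replicate block the neuron over astrocyte call of Hcn2 was lost (adjusted p = 0.0609). It was also lost with total-count scaling (0.28, adjusted p = 0.335), and it held in 5 of the 18 fits that each left out 1 library. The astrocyte over microglia difference of Hcn2 was 1.28 within batch 1 and 1.63 within batch 2. Per 100 CPM of pan-neuronal markers, Hcn2 had 0.898, 1.29 and 1.54 CPM in neuron, 1.15, 1.88 and 4.00 CPM in astrocyte and 0.586, 0.703 and 1.77 CPM in microglia libraries, ranges that overlap.

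Kcna1, at chr6:126617360-126623347 on GRCm39 (ENSMUSG00000047976.5), had an astrocyte over microglia difference of 0.92 (SE 0.27, adjusted p = 0.0224), 1.15 within batch 1 and 0.59 within batch 2 (adjusted p = 0.236). The call was lost, leaving Hcn2 alone, without any one of 8 libraries: the batch 1 microglia libraries, the batch 1 vehicle, batch 1 risperidone and batch 2 clozapine astrocyte libraries, and both clozapine neuron libraries. Per 100 CPM of pan-neuronal markers, Kcna1 had 1.00, 1.16 and 1.45 CPM in neuron, 1.09, 1.74 and 3.81 CPM in astrocyte and 1.06, 1.24 and 1.6 CPM in microglia libraries, ranges that overlap. Kcna2 came next with 0.80 (SE 0.29, adjusted p = 0.0822), and its value was 1.31 within batch 1 and 0.22 within batch 2. Oligodendrocyte markers moved the same way: all 10 were called higher in the astrocyte than in the microglia fraction, with a median of 2.83. Their summed level in astrocyte libraries was 7008 to 10807 CPM in batch 2, against 27988 to 44077 CPM in batch 1. The part of these cells in the values of Hcn2, Kcna1 and Kcna2 was not tested.

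**Figure D3:**
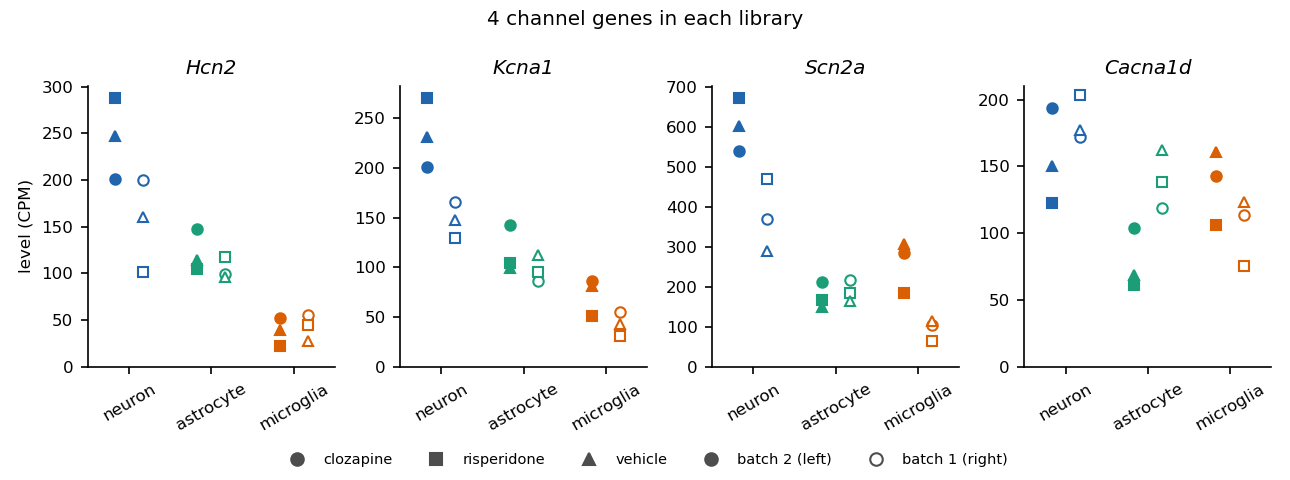
Level in CPM of Hcn2, Kcna1, Scn2a and Cacna1d in each library, by fraction, with batch 2 as filled points on the left of each fraction, batch 1 as open points on the right, and a marker shape for each treatment. The Hcn2 astrocyte libraries sit between 95.8 and 147 CPM, all above its microglia libraries, while the Cacna1d fractions overlap.

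The direction between astrocytes and microglia depended on the batch for most of the other genes. Within batch 1, all 29 genes were higher in astrocytes, with a median of 0.89, and 25 were called (13.5% of all genes called higher). Within batch 2, 25 of 29 were lower in astrocytes, with a median of -0.45, and the calls were Hcn2 higher (3.26% of all genes) and Cacna1d lower (5.57%). For the smallest pooled differences, Scn2a had 0.07 (SE 0.34, adjusted p = 0.966), Scn4b 0.08 (SE 0.32, adjusted p = 0.957), Cacna1a -0.02 (SE 0.29, adjusted p = 0.99), Kcnb2 -0.03 (SE 0.26, adjusted p = 0.986) and Cacna1d -0.12 (SE 0.27, adjusted p = 0.914). Of the larger ones, Scn2b had 0.38 (SE 0.32, adjusted p = 0.647), Scn8a 0.20 (SE 0.32, adjusted p = 0.868), Cacna1e 0.17 (SE 0.32, adjusted p = 0.899), Cacna1i 0.25 (SE 0.28, adjusted p = 0.773) and Kcna4 0.11 (SE 0.23, adjusted p = 0.908). A p above the threshold does not show that astrocyte and microglia libraries hold equal amounts. By pool, Hcn2, Kcna1 and Kcna2 were higher in astrocytes in all 6 pools (9.24% of all genes), and no gene of the 29 was lower in all 6. With total-count scaling these 3 genes were called (6.52% of all genes higher) and 24 of 29 lay above 0.

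Other genes of the same channels followed the 29 in part. Of 10 genes that anchor channels or bind their tails, all 10 were called higher in neurons than in microglia (median 1.65) and 6 higher than in astrocytes (1.09). Among them Fgf13, an intracellular partner of sodium channels, differed by 2.55 over microglia and 1.79 over astrocytes. Of 18 further calcium channel genes, 13 were higher and 1 lower than in microglia (median 1.21), and 10 were higher and 2 lower than in astrocytes (0.98). Cacng2, the stargazin gene, differed by 2.21 over microglia and 1.63 over astrocytes. Of 13 potassium auxiliary genes found, 8 were higher and 2 lower than in microglia (median 1.26), and 7 were higher and 2 lower than in astrocytes (0.97). Kcnab2, a cytoplasmic beta subunit of Shaker channels, differed by 2.72 over microglia and 1.98 over astrocytes.

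Of 28 further potassium pores, 14 were higher and 5 lower than in microglia (median 0.70), and 14 were higher and 2 lower than in astrocytes (0.85). Hvcn1, the proton channel of phagocytes, differed by -3.27 in neurons over microglia and by -2.87 in astrocytes over microglia. Of the 7 remaining sodium channel genes, 4 were lower in neurons than in microglia and 4 lower than in astrocytes, and 1 was higher in each comparison. Scn10a, a pore of sensory neurons, had 0.423, 2.27 and 8.15 CPM in neuron and 6.03, 10.4 and 18.1 CPM in microglia libraries, a difference of -2.0. Scn4a, the skeletal muscle pore, had 0, 1.04 and 6.25 CPM in neuron and 8.26, 9.74 and 13.8 CPM in microglia libraries, a difference of -2.37. The chemosensory receptor level given above also runs lower in neuron libraries, and its part in these 2 genes was not tested.

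In the microglia fraction the batches differed for most channel genes. There 22 of 29 channel genes were higher in batch 2 than in batch 1 and none lower (2.85% of 32846 genes higher, 1.41% lower), in a fit with treatment beside batch. Their median difference was 0.86, against -0.05 over all genes, and 28 were higher in batch 2 in each of the 3 treatments (16.3% of all genes). In all, 22 had batches that did not overlap (6.20% of all genes). All 7 sodium genes, 5 of 8 calcium genes and 10 of 13 potassium genes were called. Values are given for clozapine, risperidone and vehicle in that order. Scn2a had 284, 184 and 308 CPM in batch 2, against 105, 64.8 and 114 CPM in batch 1, a difference of 1.49 (SE 0.19, adjusted p = 4.19e-05). Scn2b had 75.0, 59.7 and 77.1 CPM in batch 2, against 31.0, 18.4 and 31.7 CPM in batch 1, a difference of 1.44 (SE 0.21, adjusted p = 0.000122). Kcnd2 had 76.1, 49.6 and 94.8 CPM in batch 2, against 33.6, 22.4 and 30.7 CPM in batch 1, a difference of 1.35 (SE 0.21, adjusted p = 0.000237). In all 3 genes every batch 2 library lay above every batch 1 library.

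The next genes by p were Kcnh7 at 1.27 (SE 0.20), Scn1a at 1.29 (SE 0.20), Cacna1e at 1.13 (SE 0.19), Scn8a at 1.11 (SE 0.19), Kcnh1 at 1.28 (SE 0.21), Scn4b at 1.3 (SE 0.22) and Kcnq5 at 1.14 (SE 0.20), with adjusted p from 0.000271 to 0.00091. Hcn2 was the one gene below 0, with 51.9, 22.5 and 39.5 CPM in batch 2, against 55.4, 44.3 and 28.0 CPM in batch 1 and a difference of -0.16 (SE 0.24, adjusted p = 0.86). Without the batch 2 vehicle library the count was 14. In the same libraries 14 of 18 pan-neuronal markers were higher in batch 2 (median 1.1), 7 of 11 astrocyte markers were lower (-1.04), and all 5 erythrocyte markers were lower (-2.25). The pan-neuronal sum in microglia libraries was 3837 to 8153 CPM in batch 2, against 2507 to 3630.5 CPM in batch 1. No microglia marker was called (median -0.42). The part of neuronal RNA in the batch difference was not tested.

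In the astrocyte fraction 0 of 29 channel genes passed (2.08% of 31022 genes were higher, 3.56% lower), with 5 at an unadjusted p under 0.05 (21.8% of all genes). DESeq2 called 3, with its share over all genes not given here. Their median was -0.24, with 25 of 29 below 0, against 0.13 over all genes. Scaling by total counts turned that round, to a median of 0.22 with 22 genes above 0, while the median of all genes moved to 0.59. The 3 genes of smallest p were all calcium pores. Cacna1d had 104, 61.0 and 68.5 CPM in batch 2, against 119, 138 and 163 CPM in batch 1, a difference of -0.85 (SE 0.28, adjusted p = 0.0583). Cacna1g had 54.2, 50.1 and 40.3 CPM in batch 2, against 74.3, 88.0 and 87.1 CPM in batch 1, a difference of -0.77 (SE 0.26, adjusted p = 0.0668). Cacna1b had 75.0, 61.3 and 64.6 CPM in batch 2, against 119.6, 117 and 93.4 CPM in batch 1, a difference of -0.69 (SE 0.26, adjusted p = 0.11). Batches did not overlap for 10 genes, these 3 among them, each lower in batch 2 (14.4% of all genes). The 3 calls of DESeq2 were these 3 genes. With total-count scaling the calls were 2, Hcn2 and Kcna1, both higher in batch 2 (3.04% of all genes higher). In the same libraries 5 of 18 pan-neuronal markers were called lower in batch 2 (median -0.51) and 9 of 12 dissociation-response genes higher (1.0), and their part was not tested. Without either clozapine library the counts were 7 (without batch 1) and 8 (without batch 2).

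In the neuron fraction 0 of 29 passed (0.137% of 25510 genes higher, 0.196% lower). At an unadjusted p under 0.05 there were 17 (24.7% of all genes). DESeq2 called 11, with its share over all genes not given here. The median was 0.54, with 28 of 29 above 0, against -0.10 over all genes, and 24 had batches that did not overlap, all higher in batch 2 (19.8% of all genes). The count called was 12 without the batch 1 clozapine library, 13 without the batch 2 clozapine library and 1 without the batch 2 risperidone library. Kcnd2 had 181, 268 and 184 CPM in batch 2, against 119, 109 and 76.9 CPM in batch 1, a difference of 0.91 (SE 0.20, adjusted p = 0.0626). Kcnc2 had 85.2, 89.7 and 85.9 CPM in batch 2, against 41.7, 46.0 and 48.4 CPM in batch 1, a difference of 0.79 (SE 0.19, adjusted p = 0.0651). Kcnc1 had 208, 256 and 222 CPM in batch 2, against 130.3, 101 and 119 CPM in batch 1, a difference of 0.82 (SE 0.20, adjusted p = 0.0658). Cacna1d was the gene below 0, at -0.41. With total-count scaling the median was 0.33, with 4 of 29 below 0, against -0.31 over all genes. Of the interneuron markers, 4 of 8 were called higher in batch 2 (median 1.18). The glutamatergic sum was 9060 to 11521 CPM in batch 2, against 3833 to 9081 CPM in batch 1. The pan-neuronal sum in neuron libraries was 16497 to 19957 CPM in batch 2, against 11284 to 15316 CPM in batch 1, with 17 of 18 markers above 0 (median 0.68). The oligodendrocyte sum was 7593 to 9109 CPM in batch 2, against 16554 to 38759 CPM in batch 1. The part of these cell types in the channel values was not tested.

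The batch difference itself was compared between fractions in 1 fit of all 18 libraries, a test added after the data were seen. For astrocytes minus microglia, 19 channel genes were called lower and none higher (3.69% and 1.14% of 37310 genes), with a median of -1.29 against 0.34 over all genes. The largest was Scn2b at -1.78 (SE 0.34, adjusted p = 0.0033), and Hcn2 alone lay above 0, at 0.40. For neurons minus astrocytes, 16 were called higher and none lower (8.49% and 7.18%), with a median of 0.98 against -0.49, and the largest was Kcnd2 at 1.24 (SE 0.32, adjusted p = 0.0157). With total-count scaling these counts were 11 for astrocytes minus microglia (1.65% of all genes lower) and 0 for neurons minus astrocytes (0.351% higher, 13.1% lower). The median for neurons minus astrocytes was then 0.15, with 8 of 29 below 0, against -1.31 over all genes. The first count was 9 to 12 without the batch 1 clozapine microglia library, either vehicle astrocyte library or the batch 1 risperidone astrocyte library. The second was 0 or 1 without any one vehicle or risperidone library of the astrocyte or neuron fraction, and 7 to 9 without any one microglia library other than batch 2 risperidone. For neurons minus microglia 0 were called (0.421% of all genes higher, 0.217% lower). At an unadjusted p under 0.05 there were 2 (14.4% of all genes), Hcn2 at 0.90 and Scn2a at -0.75.

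**Figure D4:**
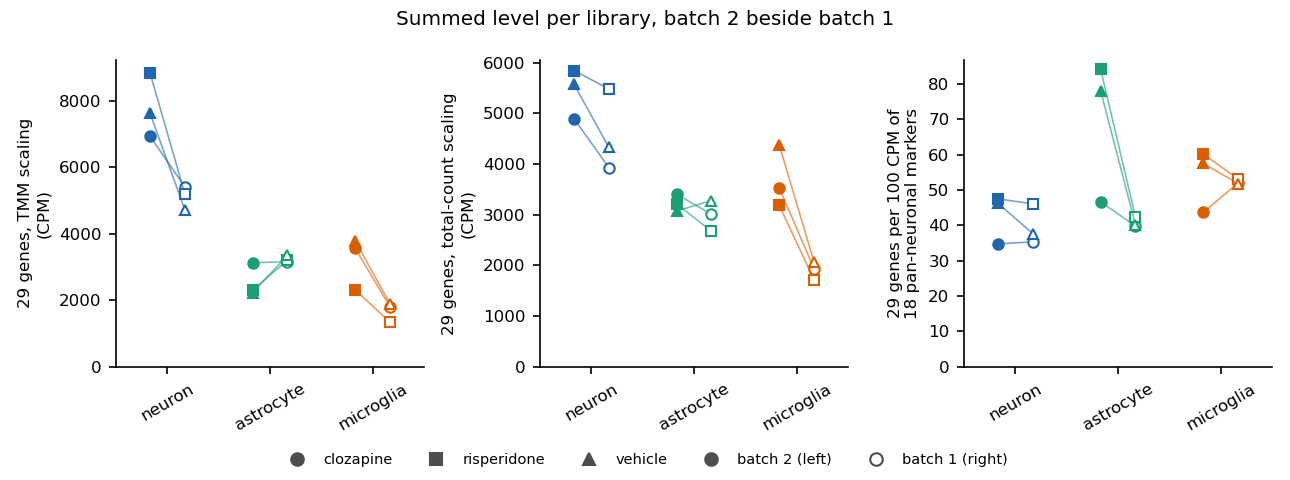
Summed level of the 29 channel genes in each library, as CPM with TMM scaling, as CPM with total-count scaling, and per 100 CPM of 18 pan-neuronal markers, with batch 2 left of batch 1 in each fraction, lines that join the libraries of one treatment and a marker shape for each treatment. With TMM scaling the microglia libraries have 2310.1 to 3781 CPM in batch 2, all above the 1331 to 1880.1 CPM of batch 1.

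No channel gene passed the threshold used in a comparison of treatments. Against vehicle and against each other, 0 of 29 genes passed in any fraction (0.0% higher and 0.0% lower of all genes in all 9 comparisons). DESeq2 called 0 of the 29 as well. In all 9 comparisons together 1 channel gene had an unadjusted p under 0.05 (0.645% to 7.38% of all genes, by comparison). The comparisons of a fraction share libraries, so their values are not independent of each other.

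In microglia libraries risperidone over vehicle gave the median furthest from 0 of the 9 drug comparisons. Of 29 genes 28 were below 0, and these 28 were lower in both batches (30.7% of all genes were lower in both), with a median of -0.56 against 0.02 over all genes. Scaling by total counts gave a median of -0.36 against 0.21 over all genes. Scn3b, in batch 1 and batch 2, had 20.6 and 33.9 CPM with risperidone, against 37.3 and 73.3 CPM with vehicle. That is a difference of -0.98 (SE 0.42), with an unadjusted p of 0.0386 and an adjusted p of 0.929. Cacna1d had 75.5 and 106 CPM with risperidone, against 124 and 161 CPM with vehicle, a difference of -0.59 (SE 0.33). Cacna1e had 130.1 and 259 CPM with risperidone, against 228 and 475 CPM with vehicle, a difference of -0.81 (SE 0.49). The groups did not overlap for Scn3b and Cacna1d and overlapped for Cacna1e. In all 4 genes were lower without overlap, with Cacna1h and Kcnc4 as the others (18.6% of all genes). Neuronal markers ran the same way, with 17 of 18 pan-neuronal genes below 0 (median -0.47) and all 8 glutamatergic genes below 0 (-0.54). Their part in the channel values was not tested.

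Clozapine over vehicle in microglia gave 10 genes above 0 and 19 below, with a median of -0.12 against -0.01 over all genes. Total-count scaling left 6 above 0, with a median of -0.23 against -0.08. Pan-neuronal markers ran the other way, with 16 of 18 above 0 (median 0.46), and their part was not tested. Hcn2 had 55.4 and 51.9 CPM with clozapine, against 28.0 and 39.5 CPM with vehicle, a difference of 0.60 (SE 0.37). It was the 1 gene of 29 whose groups did not overlap (16.5% of all genes were higher and 13.4% lower without overlap). Scn3a had 20.8 and 46.9 CPM with clozapine, against 26.3 and 70.0 CPM with vehicle, a difference of -0.57 (SE 0.51). Scn4b had 17.9 and 35.8 CPM with clozapine, against 22.3 and 54.1 CPM with vehicle, a difference of -0.57 (SE 0.54). For Scn3a and Scn4b the batches lay further apart than the treatments. Clozapine over risperidone had all 29 genes above 0, and 27 in both batches (35.8% of all genes), with a median of 0.45 against -0.04. Total-count scaling left 22 above 0, with a median of 0.16 against -0.29. All 18 pan-neuronal markers were above 0 as well (median 0.92), and their part was not tested. Kcna4 had 18.8 and 28.2 CPM with clozapine, against 10.0 and 16.1 CPM with risperidone, a difference of 0.73 (SE 0.39). Kcna1 had 55.1 and 86.6 CPM with clozapine, against 31.1 and 50.6 CPM with risperidone, a difference of 0.68 (SE 0.40), and Scn3b differed by 0.70 (SE 0.42). The smallest adjusted p among the 29 was 0.68.

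In astrocyte libraries the medians were smaller in size than in microglia for risperidone over vehicle and for clozapine over risperidone. For clozapine over vehicle they were of like size. Clozapine over vehicle gave 23 genes above 0, with a median of 0.13 against -0.04 over all genes. Total-count scaling left 13 above 0 and turned the median to -0.01, against -0.24. Of the 18 pan-neuronal markers 17 were above 0 (median 0.57), and all 8 glutamatergic markers (0.68). Kcnc4 had 31.7 and 29.4 CPM with clozapine, against 22.9 and 17.8 CPM with vehicle, a difference of 0.57 (SE 0.33). Kcnq5 differed by 0.41 (SE 0.34) and Kcnd2 by 0.41 (SE 0.35). Risperidone over vehicle gave 13 genes above 0, with a median of -0.07 against -0.01, and 5 with total-count scaling, with a median of -0.15 against -0.10. Here 6 of 18 pan-neuronal markers (median -0.05) and all 11 astrocyte markers (0.38) were above 0. Kcnc4 had 29.6 and 28.8 CPM with risperidone, against 22.9 and 17.8 CPM with vehicle, a difference of 0.53 (SE 0.33). Kcna4 differed by -0.34 (SE 0.37) and Kcnc2 by -0.28 (SE 0.33). For Kcnc4 both vehicle libraries lay below all 4 drug libraries. Over vehicle, 15.2% of all genes were higher without overlap with clozapine and 8.14% with risperidone. Clozapine over risperidone gave 25 genes above 0, with a median of 0.21 against -0.05 (24 above 0 with total-count scaling). All 18 pan-neuronal (median 0.57) and all 8 glutamatergic markers (0.74) were above 0, and all 11 astrocyte markers below 0 (-0.37). The part of these markers in the astrocyte values was not tested. Scn3b had 53.3 and 67.0 CPM with clozapine, against 41.9 and 32.6 CPM with risperidone, a difference of 0.66 (SE 0.38), Kcnb2 differed by 0.50 (SE 0.38) and Kcnq5 by 0.41 (SE 0.34).

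In neuron libraries clozapine over vehicle gave 12 genes above 0, with a median of -0.05 against -0.03 over all genes, and 6 with total-count scaling, with a median of -0.17 against -0.19. Of the 18 pan-neuronal markers 17 were above 0 (median 0.29). Kcnb2 had 64.1 and 128 CPM with clozapine, against 51.4 and 66.4 CPM with vehicle, a difference of 0.65 (SE 0.38). Scn4b had 60.5 and 68.6 CPM with clozapine, against 60.9 and 149.6 CPM with vehicle, a difference of -0.73 (SE 0.47), and Kcna4 differed by 0.23 (SE 0.35). For Scn4b the vehicle libraries lie further apart than the clozapine and vehicle means. Risperidone over vehicle gave 22 genes above 0, with a median of 0.16 against -0.0022, and 25 with total-count scaling, with a median of 0.21 against 0.06, while 8 of 18 pan-neuronal markers were above 0 (-0.07). Kcnd2 had 109 and 268 CPM with risperidone, against 76.9 and 184 CPM with vehicle, a difference of 0.49 (SE 0.48). Kcnb2 differed by 0.37 (SE 0.37) and Kcnh1 by 0.35 (SE 0.38). Clozapine over risperidone gave 6 genes above 0, with a median of -0.09 against -0.05, and 1 with total-count scaling, with a median of -0.27 against -0.27, while 14 of 18 pan-neuronal markers were above 0 (0.30). The part of these markers in the neuron values was not tested. Kcnh1 had 103 and 137 CPM with clozapine, against 115 and 222 CPM with risperidone, a difference of -0.49 (SE 0.38), Scn1a differed by -0.41 (SE 0.42) and Scn3a by -0.34 (SE 0.35).

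Whether a drug effect differed between fractions was tested with interaction terms over all 18 libraries, and 0 of the 29 genes passed in any of the 6 tests. At an unadjusted p under 0.05 there were 0 (0.976% to 3.97% of all genes, by test). Over all genes 1 was called, lower, in the risperidone effect of neurons minus astrocytes (0.00268%), and 0.0% elsewhere. The risperidone effect of neurons minus microglia had 28 genes above 0, with a median of 0.79 against 0.11 over all genes, and the 2 of smallest p were Scn3b at 1.18 (SE 0.64) and Kcnd2 at 1.33 (SE 0.79). For astrocytes minus microglia all 29 lay above 0, with a median of 0.55 against -0.01, with 1.04 (SE 0.57) for Kcnc4 and 0.79 (SE 0.64) for Scn3b. Total-count scaling left 24 above 0, with a median of 0.21 against -0.33. For neurons minus astrocytes 24 lay above 0, with a median of 0.18 against 0.05, with 0.58 (SE 0.56) for Kcna4 and 0.57 (SE 0.65) for Kcnb2. The clozapine effect of neurons minus microglia had 16 genes above 0 (median 0.04), that of neurons minus astrocytes 6 (-0.22) and that of astrocytes minus microglia 25 (0.20). The clozapine effect of neurons minus microglia was -0.69 (SE 0.66) for Hcn2 and 0.45 (SE 0.56) for Kcnc4. That of neurons minus astrocytes was -0.47 (SE 0.72) for Kcnh1 and -0.49 (SE 0.77) for Scn4b. That of astrocytes minus microglia was 0.77 (SE 0.56) for Kcnc4 and 0.67 (SE 0.64) for Scn3b.

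**Figure D5:**
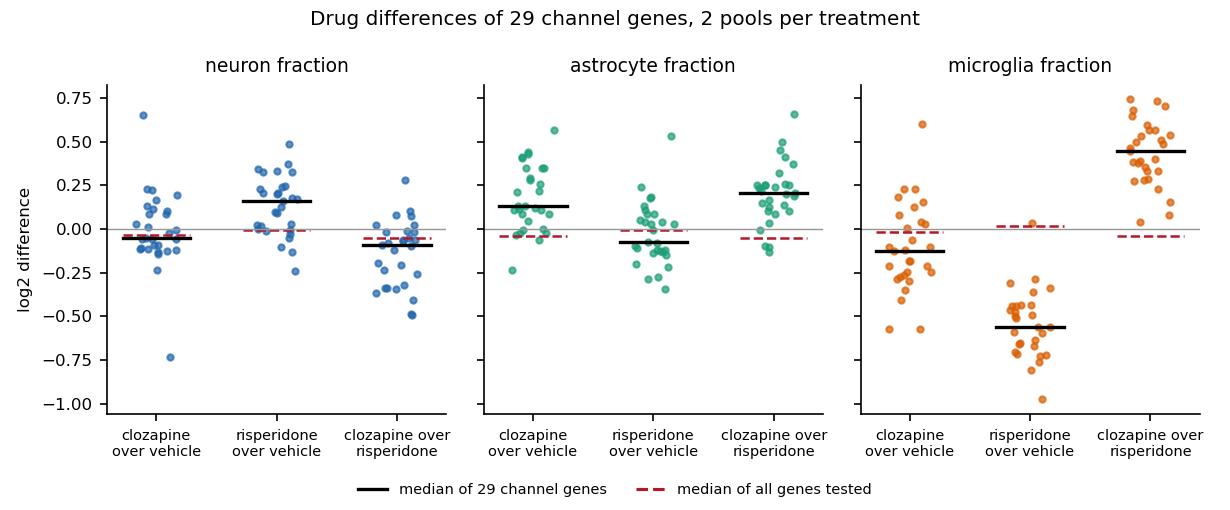
Log2 differences of the 29 channel genes in the 9 drug comparisons, 3 per fraction, 1 point per gene, with their median as a black bar and the median of all genes tested as a dashed line. No point has an adjusted p under 0.05, and the risperidone over vehicle points in microglia center on -0.56.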

How the data were processed

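The authors deposited 1 table of raw gene counts per library, in whole-number counts. The file headers name featureCounts 2.0.8, run over GRCm39 exons with no strand setting and with reads that overlap several genes given to each. FastQC is named in the submitters' processing notes, and for the aligner no name is given in the sources used here. Gene symbols matched 52029 of 56953 identifiers, and all 29 members were found. Libraries held 4.71 to 13.39 M counts.

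Models were fitted with edgeR 4.0.16 under R 4.3.3 (filterByExpr, TMM, quasi-likelihood test, Benjamini-Hochberg over all genes tested, called at an adjusted p under 0.05). CPM are counts over TMM-scaled library sizes, with factors from 0.661 to 1.402, and CPM per kb divides by the deposited exon length. Fractions and interactions used all 18 libraries as 9 group means, and drugs the 6 libraries of a fraction. Batches were fitted beside treatment. The standard error (SE) is the absolute log2 difference over the square root of F. Scripts were tested on simulated data. Figures used Python 3.11.15 with matplotlib 3.10.9.

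Replicate numbers are the labels' batches, and the series text says that every pool gave all 3 fractions. The pairing of libraries was taken from these sources and not from the counts. Over 12943 genes, deviations of the 2 batches correlated at 0.13 to 0.73 between treatments within a fraction, which are different pools. Between fractions within a treatment, which share pools, they correlated at -0.20 to 0.45. The main fits carry no block.

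The 29 members, the gene lists and the comparisons were chosen with earlier results of these data known. All members are reported. Full statistics went to the 2 largest and 2 smallest differences per family and to Hcn2, and in drug and batch comparisons to called members (10 by p) or the 3 of smallest p with 1 direction in both batches or all 3 treatments. Alternatives were the replicate block, RLE and total-count scaling, no low-count filter, DESeq2 1.42.0, calls at an adjusted p under 0.10 or with an absolute log2 difference of 1 or more, leaving out single libraries, vehicle alone and each batch alone. The fit without 4 libraries and the test of batch differences between fractions were added after the data were seen.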

Additional observations from a re-analysis of the deposited data

Results flagged for a closer look

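One library stood apart from its group. Kcnd3 had 55.4 CPM in the batch 1 vehicle neuron library, with the other 5 neuron libraries between 93.5 and 119 CPM. The gap to the nearest library, on the log2 CPM scale, was 0.685 of the whole range, over the critical value of Dixon's test for 6 libraries. Chance alone flags about 1 in 20 groups, and 87 groups of 6 libraries were examined.

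The batch 2 over batch 1 difference was not the same in all fractions, by the interaction test (edgeR, adjusted p under 0.05 over all genes). For neurons minus astrocytes the log2 values of the 16 genes were Scn1a 0.98, Scn2b 1.17, Scn3b 0.96, Scn4b 1.22, Cacna1b 0.96, Cacna1g 1.05, Cacna1h 0.98, Cacna1i 1.15, Kcna2 1.18, Kcnc1 1.21, Kcnc2 0.90, Kcnd2 1.24, Kcnq3 1.08, Kcnq5 0.99, Kcnh1 0.95 and Kcnh7 1.11. For astrocytes minus microglia the log2 values of the 19 genes were Scn1a -1.52, Scn2a -1.56, Scn8a -1.35, Scn2b -1.78, Scn4b -1.52, Cacna1a -1.39, Cacna1b -1.57, Cacna1c -1.1, Cacna1d -1.28, Cacna1e -1.69, Cacna1g -1.45, Cacna1i -1.29, Kcnc1 -1.30, Kcnc2 -1.23, Kcnd2 -1.50, Kcnq3 -1.21, Kcnq5 -1.31, Kcnh1 -1.51 and Kcnh7 -1.65. The 14 pan-neuronal markers called higher for neurons minus astrocytes (median 1.42 over 18) and the 15 called lower for astrocytes minus microglia (median -1.73) moved the same way. Their part in the channel values was not tested.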

How the results depend on the processing

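Counts of channel genes called moved by over 1.5 times under these settings. Shares over all genes are not given for other thresholds, RLE scaling, no low-count filter, DESeq2 or the replicate block. Nor are they given with single libraries left out. Such counts cannot be read as particular to channel genes. For astrocyte over microglia, the share of all genes higher was 0.818% in vehicle alone, 13.5% in batch 1 alone and 4.71% without the 4 libraries. Neuron over microglia gave 1 in vehicle libraries alone (2.97% of all genes; all 29 above 0, median 1.07). Neuron over astrocyte gave 0 in vehicle libraries alone (0.00337%; all 29 above 0, median 1.22), 13 in batch 1 alone, 15 without the 4 libraries of highest chemosensory receptor level, and 15 to 29 with single libraries left out. Astrocyte over microglia gave 1 at an absolute log2 difference of at least 1, 0 in vehicle libraries alone, 25 in batch 1 alone, 1 without the 4 libraries, and 1 to 2 with single libraries left out. Batch 2 over batch 1 gave 13 in microglia at an absolute log2 difference of at least 1 and 14 to 24 with single libraries left out. In astrocytes it gave 2 at an adjusted p under 0.10, 2 with total-count scaling, 3 with DESeq2 and 0 to 8 with single libraries left out. In neurons it gave 6 at an adjusted p under 0.10, 4 with no low-count filter, 11 with DESeq2 and 0 to 13 with single libraries left out. The batch difference of neurons minus astrocytes gave 9 at an absolute log2 difference of at least 1, 7 with RLE scaling, 0 with total-count scaling, 6 with no low-count filter and 0 to 20 with single libraries left out. That of astrocytes minus microglia gave 11 with total-count scaling and 9 to 26 with single libraries left out. Counts of drug differences and of their interactions with fraction were 0 in every setting run. With the pool as a replicate block, 28, 26 and 2 genes were called between fractions, and Hcn2 (0.81, adjusted p = 0.0609) and Cacna1h (0.68, adjusted p = 0.0613) lost their neuron over astrocyte calls. These values changed sign. For astrocyte over microglia, Scn2a was -0.00572 with RLE, -0.0129 with total-count scaling and -0.00559 with DESeq2. In vehicle alone Scn2a was -0.52, Scn4b -0.29, Scn8a -0.22, Cacna1e -0.36 and Cacna1i -0.12. Within batch 2 Scn2a was -0.62, Scn4b -0.64, Scn8a -0.48, Scn2b -0.44, Cacna1e -0.72, Cacna1i -0.45 and Kcna4 -0.42. Within batch 1 Cacna1a was 0.60, Cacna1d 0.36 and Kcnb2 0.38. Without the 4 libraries Scn2a was -0.20, Scn4b -0.069, Scn8a -0.0323 and Kcna4 -0.0492. Scn4b was -0.0063 with total-count scaling and Kcnb2 0.0297 with the block. With single libraries left out the ranges were -0.18 to 0.39 for Scn2a, -0.17 to 0.41 for Scn4b, -0.0159 to 0.42 for Scn8a, -0.28 to 0.13 for Cacna1a, -0.42 to 0.00237 for Cacna1d, -0.059 to 0.38 for Cacna1e, -0.26 to 0.25 for Kcnb2 and -0.0592 to 0.24 for Kcna4. For clozapine over vehicle they were -1.30 to 0.36 for Scn3a and -1.18 to 0.26 for Scn4b in microglia, and -1.21 to 0.0119 for Scn4b and -0.26 to 0.59 for Kcna4 in neurons. For risperidone over vehicle they were -0.68 to 0.0691 for Kcna4 in astrocytes, and -0.19 to 1.19 for Kcnd2 and -0.11 to 0.70 for Kcnh1 in neurons. The clozapine effect ranged from -0.0614 to 0.94 for Kcnc4 in neurons minus microglia and from -1.01 to 0.27 for Scn4b in neurons minus astrocytes. The cause was not tested. Every channel gene had at least 68 counts in each library, and each group had 2 pools. For named genes between fractions, apart from single libraries left out, 334 values kept their direction and side of the threshold, 14 newly passed it, 57 no longer passed and 24 changed sign.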

Other observations

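Of the further channel genes, those called between astrocytes and microglia are given here (6.85% of all genes higher, 6.18% lower). Cacng4, a calcium channel gamma subunit that also binds glutamate receptors, was higher in the astrocyte fraction by 1.46 on the log2 scale, with 30.2, 35.6 and 60.8 CPM as the lowest, median and highest level in astrocyte libraries and 6.92, 14.8 and 20.6 CPM in microglia libraries. Cacng7, another of the further calcium channel genes, was higher by 0.98. Kcna6, a Shaker subunit, was higher by 1.04 and Kcnip3, a calcium-binding partner of Shal channels, by 1.17. Nfasc, an adhesion protein of the axon initial segment and of myelin contacts, was higher by 0.99. Hvcn1 differed by -2.87, with 7.92, 11.2 and 32.9 CPM in astrocyte libraries and 86.2, 109 and 126 CPM in microglia libraries.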
